A study of Mus musculus with 2 samples.

Results

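The 8 genes described here are the activators of the mammalian circadian clock and the bZIP genes that it drives: Arntl, Clock, Npas2, Rora, Dbp, Tef, Hlf and Nfil3, of 21938 protein-coding genes of GENCODE M21. They were taken by name; the rule uses no measured value, but the genes were proposed with earlier results of these data in view. Chromatin accessibility was measured by DNase-seq, in which nuclei are treated with the nuclease DNase I and the released ends are sequenced, so that a peak is a stretch of DNA that the enzyme could reach. The samples form 1 group of 2 libraries, made from right cerebral cortex taken at 2 months of age from male mice of the hybrid strain B6CASTF1/J (C57BL/6J crossed with CAST/EiJ), with no treatment and no engineered allele in the labels. Replicate 1 is the animal numbered 5 and replicate 2 the animal numbered 6; both carry the same donor record, so their separateness rests on those numbers. The tissue is a bulk sample of all cortical cells, and no label used here gives the hour at which it was taken. All letters and positions refer to mm10, whose sequence is that of C57BL/6J, so CAST/EiJ alleles are not shown. There was no second condition and no statistical test was run: each value is given per library and set beside the same value over all genes or all peaks.

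In the clock, BMAL1 (the product of Arntl) pairs with CLOCK or with its relative NPAS2, and the pair binds E-boxes, whose best-known form is CACGTG, in the Per, Cry, Nr1d and Dbp genes. The PER and CRY proteins then inhibit the pair. A further loop closes on Arntl itself, where RORA activates and the REV-ERB proteins repress through ROR elements (TAGGTCA after an A/T-rich stretch). DBP, TEF and HLF are the PAR bZIP factors, which activate through D-boxes (TTACGTAA and near forms), and NFIL3 (E4BP4) is the repressor that competes with them at the same sites.

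A promoter peak is a peak of the authors' stricter set with at least 1 bp within 1000 bp of any annotated start of the gene, and the height of a peak is the authors' signal, whose scaling is not stated. A footprint is a short protected stretch called by the authors inside accessible DNA, and a motif match is said to lie in one if it falls within the footprint extended by 5 bp on each side. The sequences at which the peaks, footprints and clock elements of these genes meet are printed first. They were read from the GRCm38.p6 genome of RefSeq (mm10), 5′ to 3′ on the strand of the gene. In the first 6, capitals mark bases that lay in a footprint of both libraries. They are the parts of the Arntl, Dbp and Tef promoter peaks before an annotated start (at most 300 bp), and the peak in Dbp's second intron, in Hlf's second intron and upstream of Nfil3. Coordinates are chr7:113207165-113207464 for Arntl, chr7:45704788-45705087 and chr7:45707621-45707860 for Dbp, chr15:81810801-81811045 for Tef, chr11:90369701-90369880 for Hlf and chr13:52982881-52983080 for Nfil3, the last pair on the minus strand and the others on the plus strand.
Arntl upstream of its start: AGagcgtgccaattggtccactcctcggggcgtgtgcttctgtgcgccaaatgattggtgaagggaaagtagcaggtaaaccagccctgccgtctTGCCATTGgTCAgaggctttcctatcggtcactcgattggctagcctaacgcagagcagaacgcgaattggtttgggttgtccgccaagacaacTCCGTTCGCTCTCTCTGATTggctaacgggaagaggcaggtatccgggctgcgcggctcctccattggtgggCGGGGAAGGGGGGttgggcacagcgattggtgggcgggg
Dbp upstream of its start: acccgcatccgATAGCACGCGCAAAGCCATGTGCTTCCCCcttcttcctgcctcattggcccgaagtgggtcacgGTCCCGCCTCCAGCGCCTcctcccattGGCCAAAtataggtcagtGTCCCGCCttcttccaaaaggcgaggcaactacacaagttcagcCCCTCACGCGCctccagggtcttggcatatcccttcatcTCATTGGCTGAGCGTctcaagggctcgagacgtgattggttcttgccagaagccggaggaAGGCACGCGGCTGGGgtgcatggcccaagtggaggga
Dbp second intron: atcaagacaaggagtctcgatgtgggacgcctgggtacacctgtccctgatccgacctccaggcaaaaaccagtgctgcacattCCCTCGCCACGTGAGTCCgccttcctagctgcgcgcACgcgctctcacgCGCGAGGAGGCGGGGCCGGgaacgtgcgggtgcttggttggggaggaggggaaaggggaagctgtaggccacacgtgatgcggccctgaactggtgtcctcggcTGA
Tef upstream of its inner start: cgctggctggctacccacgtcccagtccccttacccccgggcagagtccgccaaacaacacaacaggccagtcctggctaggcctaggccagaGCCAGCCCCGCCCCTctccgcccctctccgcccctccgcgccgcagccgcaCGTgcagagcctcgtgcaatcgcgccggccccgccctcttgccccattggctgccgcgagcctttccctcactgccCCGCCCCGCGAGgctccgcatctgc
Hlf intron: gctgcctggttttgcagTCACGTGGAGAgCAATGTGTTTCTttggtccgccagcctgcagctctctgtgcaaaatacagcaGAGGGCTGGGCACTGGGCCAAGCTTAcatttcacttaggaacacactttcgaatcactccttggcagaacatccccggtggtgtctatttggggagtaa
Nfil3 upstream site: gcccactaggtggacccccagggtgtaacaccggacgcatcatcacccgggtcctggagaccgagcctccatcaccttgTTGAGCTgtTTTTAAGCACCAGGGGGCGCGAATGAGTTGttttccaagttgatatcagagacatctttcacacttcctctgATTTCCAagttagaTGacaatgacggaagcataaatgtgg

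The short sites that follow are matches of clock or cAMP elements that lay in a footprint of both libraries outside those 6 windows, and a pair of ROR elements at the Arntl start. In the 3′ flanks only the D-box variant is shown; a full cAMP element in the flank of Rora, at chr9:69397913-69397920, and one in that of Dbp, at chr7:45717992-45717999, also lay in a footprint of both libraries, in peaks at the starts of other genes (Ice2 for the first, Sphk2 and Rpl18 for the second). Each has 10 bp on either side, and capitals mark the match. The start of the printed stretch is chr1:39340832 for Npas2, chr9:68656307 and chr9:68687663 for Rora, chr15:81802536 and chr15:81836639 for Tef, chr11:90390909 for Hlf, chr13:52980212 for Nfil3, and chr7:113207531 and chr7:113207495 for Arntl.
Npas2 E-box: cttttttgagCACGTGtgccctctgc
Rora D-box variant: aggcactaggTTACATAAcagtctgaat
Rora D-box variant: caacgtttggTTACATAAcagcagtggt
Tef E-box: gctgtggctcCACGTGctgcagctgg
Tef D-box variant: tcgactcgccTTACATAAccctcctttc
Hlf cAMP element: gtgcgggcccTGACGTCActcttgtcag
Nfil3 noncanonical E-box: ccagcgatgaAACGTGggcaccgagg
Arntl ROR element: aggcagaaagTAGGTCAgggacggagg
Arntl ROR element variant: ggtcggaaagTAGGTTAgtggtgcgac

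All 8 genes had a promoter peak in both libraries. Of all protein-coding genes, 63.4% had one in replicate 1 and 59.3% in replicate 2, and 58.7% had one in both, so a promoter peak is the common state of a gene in this tissue. The height of the tallest promoter peak set the 8 apart from each other: its lowest and highest values were 1.54 and 7.46 in replicate 1, and 1.17 and 5.69 in replicate 2. The median over the 8 was 3.57 and 2.33, beside 3.02 and 2.17 over all protein-coding genes with a promoter peak, and 5 of the 8 lay above that median in each library. The order was the same in both libraries from Dbp (7.46 in replicate 1 and 5.69 in replicate 2) over Tef (7.10 and 5.30), Arntl (4.30 and 3.95), Hlf (4.03 and 2.50), Clock (3.12 and 2.17) to Nfil3 (2.25 and 1.90). Rora (2.24 and 1.17) and Npas2 (1.54 and 1.34) were the lowest pair, and their order differed between libraries. The PAR bZIP genes Dbp and Tef thus had the tallest promoters, while the core activator Clock lay close to the median, above 51.4% and 50.1% of the genes with a promoter peak, and Npas2 below it, above 22.4% and 27.3%. As means over the libraries (SD, n = 2), the values were 6.58 ± 1.25 for Dbp, 6.20 ± 1.27 for Tef, 4.12 ± 0.249 for Arntl, 3.26 ± 1.09 for Hlf, 2.64 ± 0.667 for Clock, 2.08 ± 0.246 for Nfil3, 1.71 ± 0.753 for Rora and 1.44 ± 0.138 for Npas2. For Npas2 and Nfil3 the values of the libraries come from different peaks, so these means and SDs do not describe 1 site. At Npas2 the 1.34 is a peak of replicate 2 alone, 147 kb downstream, and the peak upstream of the start had 1.54 and 1.27. At Nfil3 the 2.25 is a start peak of replicate 1 alone, and the 1.90 lies in the first intron. Of the neighbours in this order, Tef and Arntl differed by more than the larger of their SDs, and the others did not. These SDs include the general height difference between the libraries, a median of 1.38-fold over all shared peaks. They therefore do not gauge the order within a library, which was the same in both from Dbp to Nfil3.

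**Figure D1:**
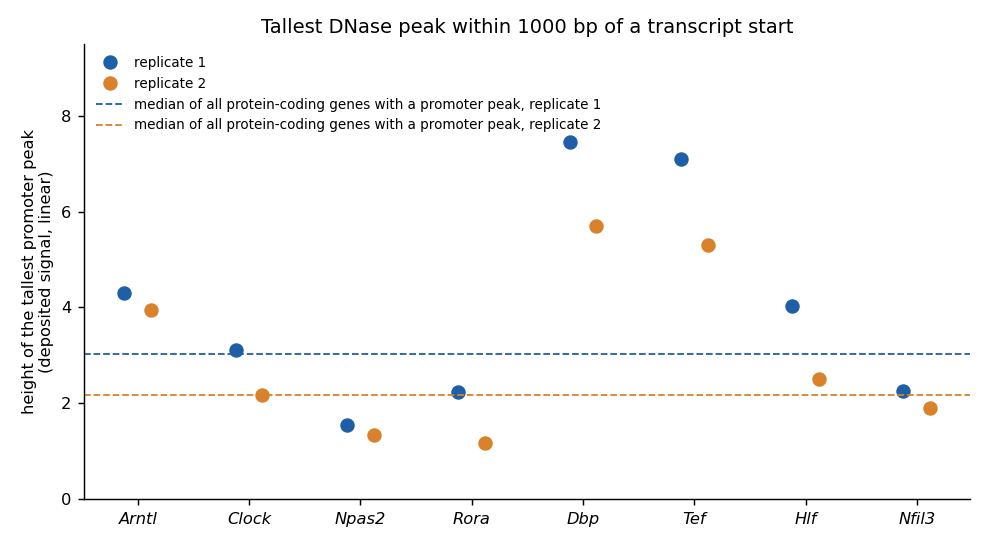
Height of the tallest promoter peak of each gene (deposited signal, linear axis from 0); points are the 2 libraries, and dashed lines are the medians over all protein-coding genes with a promoter peak, 3.02 in replicate 1 and 2.17 in replicate 2. Dbp and Tef lie highest in both libraries, and Npas2, Rora and Nfil3 lie under the line of their library.

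Arntl encodes BMAL1, the partner that CLOCK and NPAS2 share. The gene lies at chr7:113207465-113314126 on the plus strand, and its main peak ended at the first annotated start: chr7:113207101-113207480 in replicate 1 and chr7:113207101-113207460 in replicate 2. Its height was above 70.3% of genes with a promoter peak in replicate 1 and above 86.9% in replicate 2. The peak held 8 footprints in replicate 1, of which 6 touched a footprint of the other library, and 9 in replicate 2, of which 5 did. In all peaks found in both libraries, 47.1% of footprints of replicate 1 and 66.6% of those of replicate 2 did. The printed Arntl sequence reads as a row of CCAAT boxes, the element bound by the general factor NF-Y: 9 matches over both strands, of which 1 pair overlaps. As many or more were in 0.0128% of all promoter peaks of replicate 1 and in 0.0201% of those of replicate 2. These shares are over peaks of any width. The Arntl peak measured 380 bp and 360 bp, beside a median of 200 bp over all peaks in each library. Of the 9, 2 lay in a footprint of both libraries. This count was made after the sequence had been seen.

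A second, lower Arntl peak (1.41 in replicate 1 and 0.860 in replicate 2) lay in the first intron, and a gap of 220 bp without a called peak separated it from the first in both libraries. Each of the 220 bases was still listed by the authors as significantly cut, with a lowest false discovery rate of 1.4e-16 in replicate 1 and 5.03e-18 in replicate 2. The first exon of Arntl-201 starts at chr7:113207465, inside the gap in replicate 2 and inside the end of the first peak in replicate 1. A search made after the gap was seen found TAGGTCA and the near form TAGGTTA in the gap, in the 5′ UTR of Arntl-201. The protein-coding forms Arntl-203 and Arntl-204 start further in, at chr7:113207526 and chr7:113207557. TAGGTTA lies upstream of both these starts, and TAGGTCA upstream of that of Arntl-204 only. TAGGTCA, at chr7:113207541-113207547 and 76 bp after the start, was covered by a footprint in both libraries. The footprint was chr7:113207541-113207551 in replicate 1 and chr7:113207541-113207547 in replicate 2, where it spanned the 7 letters of the element and no base more. TAGGTTA, 40 bp after the start at chr7:113207505-113207511, touched no footprint in either library. Beyond the start the tallest Arntl peak was in the second intron, 41.9 kb downstream, with a height of 2.31 in replicate 1 and 1.65 in replicate 2.

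Clock encodes the histone acetyltransferase partner of BMAL1 and lies at chr5:76209868-76304792 on the minus strand. Its start was spanned by 1 peak, chr5:76304721-76304980 in replicate 1 (height 3.12) and chr5:76304721-76304960 in replicate 2 (2.17). The noncoding gene Gm7467 starts within 1000 bp, so the peak cannot be given to Clock alone. A lower peak in the first intron (1.27 and 0.852), 802 bp and 790 bp downstream, held a CACGTT, the noncanonical E-box, which lay in a footprint in replicate 1 only. Away from its starts Clock was sparse: 3 intronic peaks in replicate 1 and 2 in replicate 2, the tallest of 1.29 and 0.968 in intron 22.

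Npas2 encodes the CLOCK relative best known from the forebrain, and it lies at chr1:39193731-39363236 on the plus strand. More of its promoter was called in replicate 1 than in replicate 2. Since depth is unknown, this is not read as more accessible chromatin. Of the 2001 bases centred on the 5′ end of Npas2, 1901 were listed as significantly cut in replicate 1 and 676 in replicate 2. The peak upstream of the start measured 660 bp with a height of 1.54 in replicate 1, and 226 bp with a height of 1.27 in replicate 2. It held an ROR element in both libraries, 889 bp upstream, in no footprint. The peaks at or just after the annotated starts, of 0.551, 1.20 and 0.576, were called in replicate 1 only. The reverse held 147 kb downstream at the start of Npas2-202, a noncoding transcript, where replicate 2 alone had a peak (chr1:39340782-39340960, height 1.34). The printed Npas2 E-box lies in it. A footprint covered that E-box in both libraries (chr1:39340842-39340864 in replicate 1 and chr1:39340840-39340865 in replicate 2), and replicate 1 listed bases there down to a false discovery rate of 0.00179 without a peak. The tallest peaks around Npas2 were at the start of the neighbouring gene Rpl31, with 5.32 in replicate 1 and 3.83 in replicate 2.

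Rora encodes the nuclear receptor that activates Arntl and spans 734461 bp at chr9:68653786-69388246 on the plus strand. It had 9 promoter peaks in replicate 1 and 5 in replicate 2, and all lay under the median tallest height of all genes. The tallest lay 636 kb into the gene, at the start of the short protein-coding form Rora-202, with a height of 2.24 (chr9:69289741-69289960) in replicate 1 and 1.17 (chr9:69289706-69289960) in replicate 2. The peak at the first start reached 1.45 and 0.760. In replicate 1 that peak ran over 620 bp, and in replicate 2 only fragments of 56 and 93 bp were called. No Rora peak outside the promoters exceeded 1.74 in replicate 1 or 1.16 in replicate 2.

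The printed pair of Rora D-box variants (TTATGTAA, read as TTACATAA on the strand of the gene) lay in the first intron, 2.53 kb and 33.9 kb downstream of the 5′ end. Both lay in footprints of both libraries, those of replicate 2 reaching them in full only with the 5 bp extension. Both were wholly inside a peak in replicate 2 and in no peak in full in replicate 1, where a peak from chr9:68656321 held only the end of the first. In replicate 1 the 47 Rora peaks carried 124 footprints, and 37 of these touched a footprint of replicate 2. In replicate 2 the 31 peaks carried 70, and 37 of these touched one of replicate 1.

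Dbp, the PAR bZIP gene with the strongest known daily rhythm in many tissues, is short, at 5116 bp (chr7:45705088-45710203, plus strand). Its promoter peak, chr7:45704761-45705120 in both libraries, had a height of 7.46 in replicate 1 and 5.69 in replicate 2. These values were above 96.4% and 98.3% of genes with a promoter peak. The peak held 8 footprints in replicate 1 and 7 in replicate 2, and 6 and 7 of them touched a footprint of the other library. The shares over all peaks found in both libraries were 47.1% and 66.6%. Of the 300 bp printed upstream of the start, 34.3% of bases were in a footprint of both libraries, the highest share of the 6 printed windows. The 4 CCAAT boxes of the window include 2 in a footprint of both libraries. The ROR element at 186 bp upstream, seen in the printed sequence as lower-case taggtca, lay in none. No E-box was found in this peak.

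The E-boxes of Dbp were in the peak of its second intron. In mouse liver, BMAL1 and CLOCK are known to bind Dbp rhythmically at its promoter and in its introns. The intronic peak had a height of 4.03 at chr7:45707621-45707860 in replicate 1 and of 2.53 at chr7:45707627-45707880 in replicate 2, and Dbp-202, a retained-intron transcript, starts just after it. It holds 2 CACGTG and 1 CACGTT on either strand. The first CACGTG, at bases 92 to 97 of the printed intron, lay in a footprint of both libraries (chr7:45707705-45707724 in replicate 1 and chr7:45707704-45707722 in replicate 2). The second CACGTG, at bases 205 to 210, and the CACGTT lay in a footprint of replicate 1 only, and each was reached in full only with the 5 bp extension. Of peaks at starts with a width within 20 bp of this one, 9.15% in replicate 1 and 10.4% in replicate 2 held a CACGTG. The remaining Dbp promoter peaks were lower, with 2.12 and 1.77 upstream, near a start of Car11, 1.64 and 1.37 at exon 2, and 1.46 in the first intron in replicate 1 only.

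Tef, the PAR bZIP gene named for its action on the thyrotropin gene, lies at chr15:81802421-81826863 on the plus strand and had 2 separate open promoters. The outer peak, chr15:81802461-81802720 in replicate 1 and chr15:81802461-81802740 in replicate 2, had a height of 7.10 and 5.30, above 95.2% and 97.3% of genes with a promoter peak. It lies in the first exon of Tef-202, and the long noncoding gene Gm17597 starts within 1000 bp of it. Further in, the protein-coding starts Tef-206 and Tef-201 each had a peak of their own. That at Tef-206, 8.54 kb downstream of the 5′ end in replicate 1, had a height of 3.54 and 1.96, and that at Tef-201, 8.95 kb downstream, had 6.20 and 3.62.

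An E-box was found in the peak at each of these Tef starts. The outer one, 127 bp into the gene and printed with its neighbours, lay in a footprint of both libraries, as did the one at bases 143 to 148 of the printed inner promoter, 101 bp upstream of Tef-206. The replicate 2 footprint at the outer E-box reached it in full only with the 5 bp extension. The same held for the footprints of both libraries at the inner E-box. A further CACGTG 10 bp after the Tef-206 start lay in no footprint. That at Tef-201, 136 bp upstream of its start, lay in a peak and a footprint in replicate 1 only; the replicate 2 peak began further downstream. In the first intron, a peak of replicate 2 alone (0.960) held a CACGTG and a CACGTT in no footprint. In the 3′ flank of Tef, 34.2 kb downstream of the 5′ end, a peak of 2.57 and 2.08 held the printed D-box variant in a footprint of both libraries. The replicate 1 footprint reached this variant in full only with the 5 bp extension.

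Hlf, the third PAR bZIP gene, lies at chr11:90336536-90390895 on the minus strand and had few peaks, 4 in replicate 1 and 3 in replicate 2. Its main promoter peak was chr11:90390981-90391120 with a height of 4.03 in replicate 1, and chr11:90390861-90391120 with 2.50 in replicate 2. A full cAMP element, TGACGTCA, lies 27 bp upstream of the start. It was covered by a footprint in both libraries (chr11:90390914-90390940 and chr11:90390914-90390934), although the replicate 1 peak ended short of it. Of all TGACGTCA matches in peaks, 86.5% in replicate 1 and 83.7% in replicate 2 lay in a footprint, so coverage by a footprint was common for this element. Replicate 1 alone had a second promoter peak, of 1.41, at the start of the noncoding transcript Hlf-204, 8.7 kb downstream of the 5′ end.

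The tallest Hlf peak was not at a start. It lay in the second intron, 21.1 kb downstream of the 5′ end, with a height of 6.42 in replicate 1 and 3.42 in replicate 2, above 99.9% and 99.6% of all peaks away from starts. Its printed sequence carries an E-box at bases 19 to 24. That E-box lay in a footprint of both libraries, chr11:90369840-90369869 in replicate 1 and chr11:90369853-90369863 in replicate 2. A CACGTG was present in 3.39% and 4.32% of peaks of like width away from starts.

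Nfil3, the repressor of D-boxes, is a gene of 13865 bp with a single annotated start (chr13:52967209-52981073, minus strand). All 2001 bases centred on the start were listed as significantly cut in both libraries, which held for no other gene of the 8. Dbp had 1996 in replicate 1 and 1286 in replicate 2. The called peaks at the Nfil3 start were nevertheless low and left gaps. In replicate 1 a peak of 2.25 spanned the start and a pair of overlapping peaks of 2.17 and 2.02 followed in the first intron. In replicate 2 no peak spanned the start, and the intronic peak was called with 1.90 over 680 bp. Replicate 2 listed bases at the start down to a false discovery rate of 5.57e-13 without a peak. The intronic peak held the printed CACGTT, 849 bp downstream, in a footprint of both libraries, and a D-box variant 365 bp downstream in a footprint of replicate 2 only. The replicate 1 footprint at this CACGTT and the footprint at the D-box variant reached the match in full only with the 5 bp extension. An ROR element lay 25 bp after the start in no footprint. Lower promoter peaks lay upstream in both libraries, with 0.857 in replicate 1 and 0.561 in replicate 2, and further up with 1.51 and 0.599. The nearer one held a CACGTG, 663 bp upstream, and the further one a CACGTT, both in no footprint.

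The tallest Nfil3 peak lay 1.91 kb upstream, just outside the promoter window, at chr13:52982881-52983080 in both libraries. Its height was 4.56 in replicate 1 and 2.39 in replicate 2, above 99.3% and 98.3% of peaks away from starts. The printed sequence holds no E-box, D-box or ROR element. Its longest run of capitals contains AGGGGGCGC, the centre of the CTCF motif, CTCF being the insulator protein of mammalian chromatin. These letters were looked for after the sequence had been seen; on both strands they occurred in 1.44% of peaks away from starts in replicate 1 and 1.39% in replicate 2, and in no other peak around the 8 genes.

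**Figure D2:**
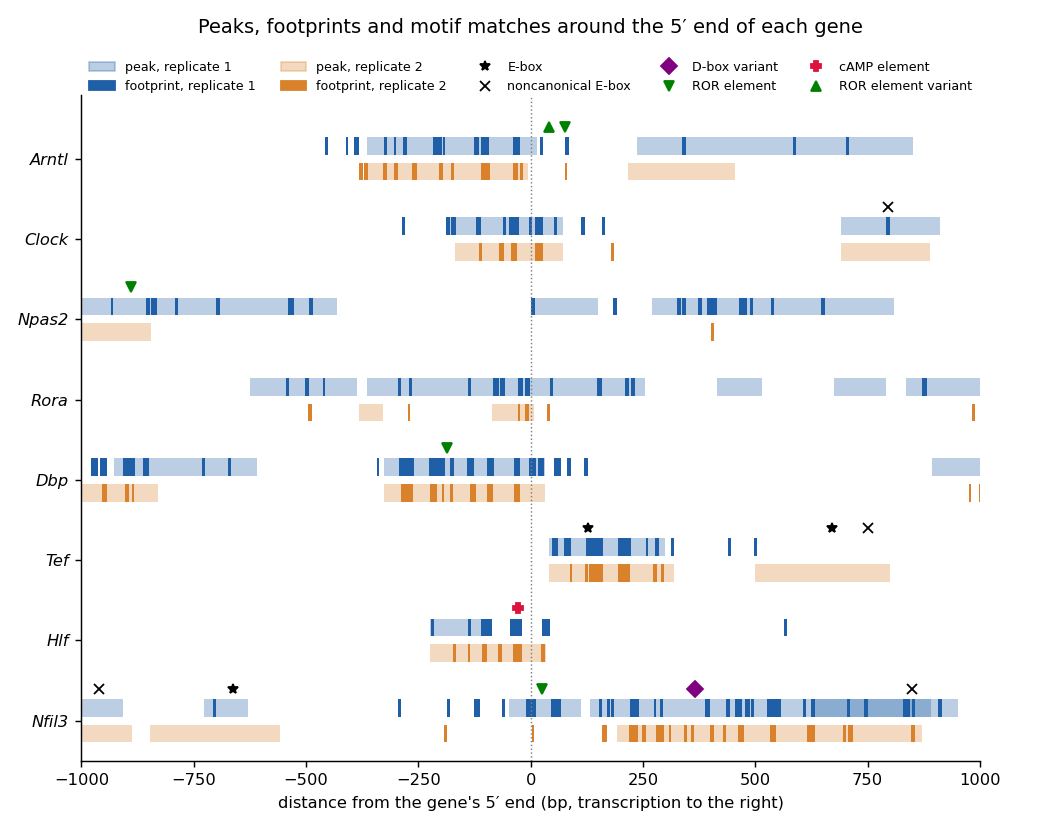
Peaks (pale bars), footprints in or out of peaks (dark bars) and motif matches (symbols) within 1000 bp of the 5′ end of each gene, replicate 1 above replicate 2, with transcription to the right; the Arntl ROR elements were added after the peaks were seen. At Arntl the ROR element at 76 bp meets a footprint in both libraries between the peaks, at Hlf the cAMP element at 27 bp upstream does, and the ROR elements of Npas2, Dbp and Nfil3 meet none.

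Clock elements were then counted over all promoter peaks of the 8 genes, on both strands. In replicate 1, 5 of 34 promoter peaks held CACGTG, beside 7.7% of all promoter peaks, and in replicate 2, 6 of 24, beside 7.98%. CACGTT was in 5 of 34 and 5 of 24, beside 5.32% and 5.26%; an overlapping pair of Nfil3 peaks in replicate 1 shares its match. TAGGTCA was in 3 of 34 and 2 of 24, beside 1.14% and 1.04%. The peaks with CACGTG belonged to Dbp, Tef and Nfil3 in both libraries and also to Npas2 in replicate 2, and those with TAGGTCA to Npas2 and Dbp in both and to Nfil3 in replicate 1. None of the 8 genes had CACGTG within 250 bp before to 50 bp after its 5′ end, beside 7.75% of all protein-coding genes, so the E-boxes counted here were all further from it or at inner starts. The perfect D-box TTACGTAA was in none of their peaks, beside 0.125% and 0.173% of promoter peaks, and the ETS site CCGGAAG in none of their promoter peaks, beside 9.41% and 10.7%. The GC box GGGCGG was in 17 of 34 and 11 of 24, beside 44.4% and 44.9%, and CCAAT in 12 of 34 and 7 of 24, beside 27.2% and 28.0%; both shares are near those of all promoters. With so few peaks, several of which share a gene, these counts are a description.

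The share of matches that lay in a footprint was then set beside that over all peaks. Over all peaks around the 8 genes, 7 of 11 CACGTG matches in replicate 1 and 6 of 11 in replicate 2 lay in one, beside 43.7% and 37.1% of such matches in all peaks. Of CACGTT matches 5 of 10 and 1 of 7 did, beside 23.7% and 19.2%. None of the 5 and 3 TAGGTCA matches in peaks did, beside 14.6% and 13.5%, and the footprinted TAGGTCA of Arntl is outside these counts since no peak was called over it. Of the TTATGTAA matches 1 of 3 and 5 of 6 did, beside 39.4% and 45.2%. A match is not a binding site, and a footprint does not name the protein.

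Over the gene body and 20 kb on each side, the 8 genes had 115 peaks in replicate 1 and 77 in replicate 2. The median was 10 and 7.5 peaks per gene, beside 4 and 3 for all protein-coding genes. Rora had the most, with 47 and 31, followed by Npas2 with 19 and 9 and Arntl with 13 and 8. These are the 3 longest genes of the 8, although the much shorter Tef also had 8 in replicate 2. Per 100 kb of window the order turned: Dbp came first with 22.2 in replicate 1 and 15.5 in replicate 2, Nfil3 next with 18.6 and 13.0, then Tef with 10.9 and 12.4. The lowest were Hlf with 4.24 and 3.18 and Clock with 3.71 and 2.96, under the medians over all protein-coding genes of 5.62 and 4.56. The median over the 8 was 8.97 and 4.88. Around Dbp several of the peaks belong to the crowded neighbourhood, with peaks at the start of Car11 (3.30 and 2.27) and near the starts of Sphk2 and Rpl18 (7.74 and 4.52). Another peak (5.56 and 3.64), also within 1000 bp of a start of another gene, lay 10.2 kb downstream of Dbp's 5′ end.

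**Figure D3:**
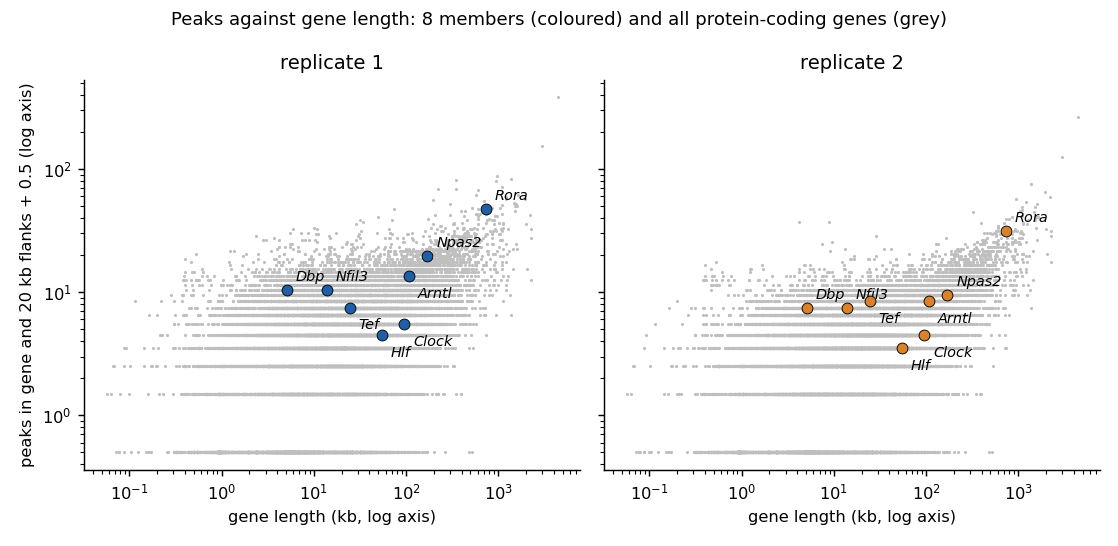
Number of peaks in the gene and 20 kb on each side (plus 0.5, log axis) against gene length (kb, log axis) for each library, with the 8 genes in colour and all protein-coding genes in grey. Rora stands at the upper right with 47 and 31 peaks, Dbp has 10 and 7 over a gene of about 5 kb, and Clock and Hlf have 3 to 5.

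For 3 of the 8 genes the tallest peak of the region lay outside their own promoter windows in both libraries: Hlf (its intron), Nfil3 (its upstream peak) and Npas2 (the Rpl31 start). Among all protein-coding genes with a promoter peak in both libraries the share was 35.6%, so 3 of 8 is near the background. At Dbp the peak near the starts of Sphk2 and Rpl18 exceeded the promoter peak in replicate 1 (7.74 against 7.46) and not in replicate 2 (4.52 against 5.69). For Arntl, Clock, Rora and Tef the tallest peak was at one of their own starts in both libraries.

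**Figure D4:**
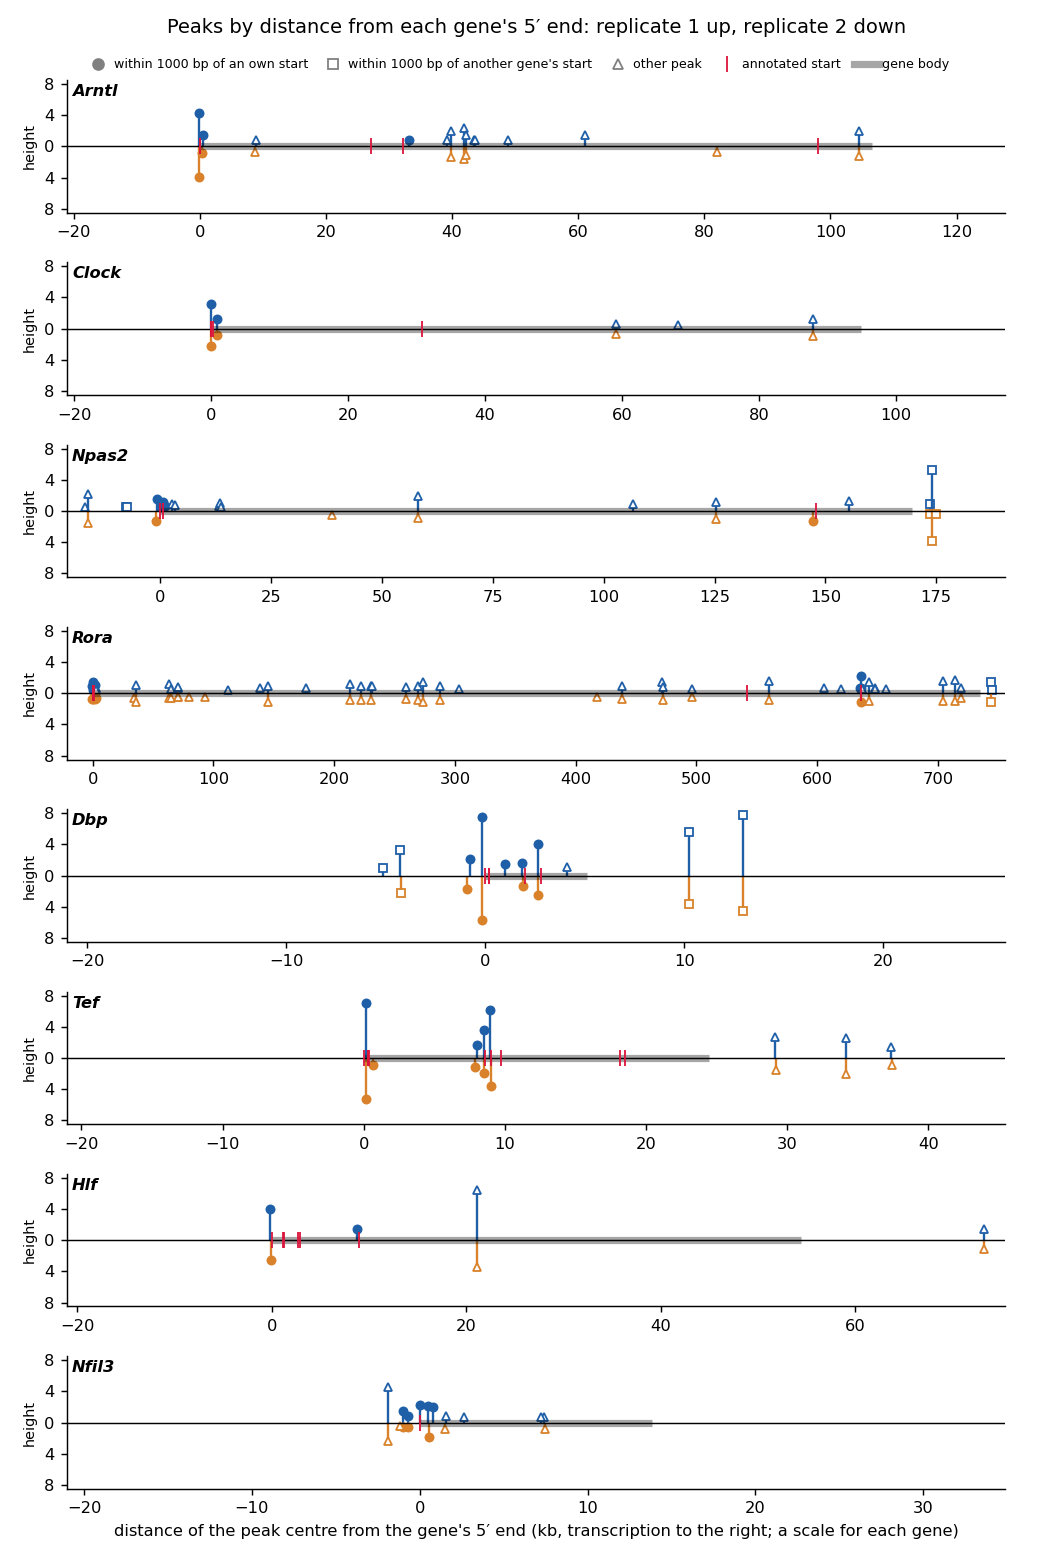
Peaks by distance from each gene's 5′ end (kb, a scale for each gene), with height as the length of the line, replicate 1 upward and replicate 2 downward; circles are within 1000 bp of an own start, squares within 1000 bp of another gene's start and triangles elsewhere. The intronic peak of Hlf and the upstream peak of Nfil3 rise above the promoters of their genes, and the peaks of Rora are many and low.

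Around the 8 genes, 67 of 115 peaks of replicate 1 (58.3%) were also found in replicate 2, by an overlap of at least 1 bp, beside 66.2% of all its peaks. In the other direction 66 of 77 (85.7%) were found, beside 80.8%. The 48 and 11 peaks found in 1 library only were mostly low, with a median height of 0.698 and 0.538. Of the 48, 20 were at Rora, none of which exceeded 0.970, and 13 at Npas2. The tallest in 1 library only was the Nfil3 start peak of replicate 1 at 2.25. For 26 of the 48 and 9 of the 11 the other library still listed significantly cut bases. Heights were greater in replicate 1 at 61 of the 67 shared peaks, by a median of 1.36-fold, which is close to the 1.38-fold over all shared peaks. Since the scaling is not stated, this is not read as more accessible chromatin. Replicate 1 also had more peaks (91818 against 75245 in replicate 2) and more footprints (394531 against 241645), and the part of these totals in the counts per gene was not tested.

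**Figure D5:**
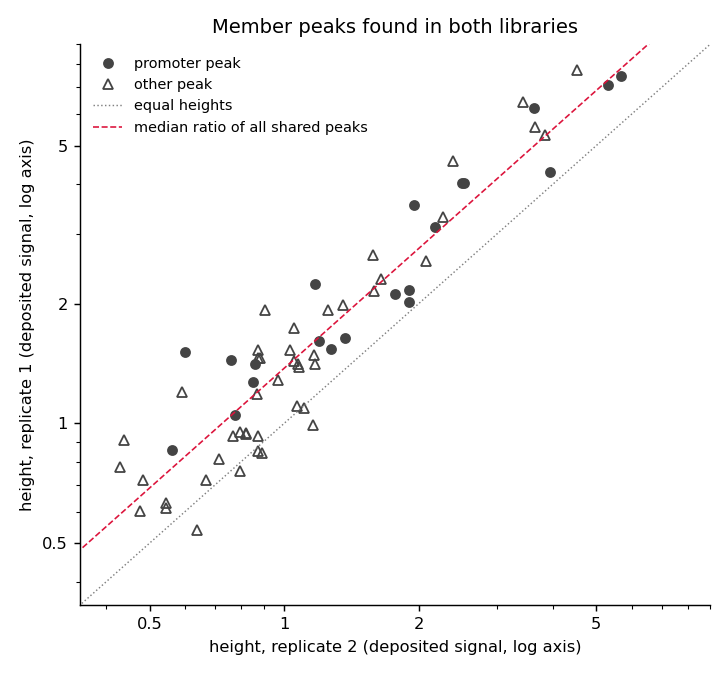
Height in replicate 1 against height in replicate 2 (deposited signal, log axes) for the 67 peaks around the 8 genes found in both libraries; circles are promoter peaks and triangles other peaks, the dotted line marks equal heights and the dashed line the median ratio of all shared peaks (1.38). The points lie around the dashed line, and 61 of the 67 lie above the line of equal heights.

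In peaks found in both libraries, 117 of 264 footprints of replicate 1 (44.3%) touched one of replicate 2, beside 47.1% over all such peaks, and 123 of 185 of replicate 2 (66.5%) touched one of replicate 1, beside 66.6%. These shares are near the background. Over all peaks of replicate 2, shared or not, 24 of 25 footprints at Dbp touched one of replicate 1, and 37 of 70 at Rora. In the other direction, 22 of 42 footprints of replicate 1 at Dbp touched one of replicate 2, and 37 of 124 at Rora. The counts over all genes described here were 126 of 193 for replicate 2 and 130 of 343 for replicate 1. No background share over peaks shared or not is given here. Replicate 1 had more footprints, and the part of this in the difference between directions was not tested.

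Of 20 other clock genes, all 20 had a promoter peak in replicate 1 and 19 in replicate 2. The median tallest height of the 8 genes, 3.57 and 2.33, lay under that of those 20 genes, 4.53 and 3.36. Per1 (11.5 and 7.42), Nr1d1 (9.26 and 6.64) and Btrc (8.90 and 5.75) were the tallest in both libraries, and no gene of the 8 reached them. The tissue label was checked against marker genes: all 7 neuronal markers had a promoter peak in both libraries, as did 2 of 3 astrocyte, 1 of 3 interneuron and 1 of 3 oligodendrocyte markers, none of 3 microglial markers, and none of 5 markers of other organs. A peak in this bulk tissue can come from many cells that are slightly open or few that are fully open, and these cannot be told apart.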

How the data were processed

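DNase-seq of 2 libraries of 1 group was used. Per the deposited descriptions, peaks were called by the authors per library on mm10. No source used here names the caller, the aligner or the read depth. The deposited peak height is a signal whose scaling is not stated. False discovery rates, deposited for single bases where under 0.05, are q-values, and the deposited footprints carry a constant p-value of 0.01. From these files, overlaps of at least 1 bp were counted with Python 3.11.15; sequence was read with pysam 0.24.0 and samtools 1.23.1, and figures were drawn with matplotlib 3.10.9. Coordinates matched GRCm38.p6. Windows were 1000 bp around each start and 20 kb around each gene of GENCODE M21. The 13 motifs were searched as exact letters on both strands: the E-box (CACGTG) and its noncanonical form (CACGTT), the D-box (TTACGTAA) and its variant (TTATGTAA), the ROR element (TAGGTCA), the cAMP element (TGACGTCA) and its short form (TGACG, which every cAMP element contains), the GC box (GGGCGG), the CCAAT box, the ETS site (CCGGAAG), and the AP-1, MEF2 and NRF1 sites. Apart from that short form, matches of different elements were counted separately. Overlap and motif counts were tested on simulated data. The genes and lists were chosen with earlier results of these data known. Named were all 8 genes with their main promoter peaks and a tall peak outside them, and of the other clock genes the 3 tallest and those without a peak. Some lower promoter peaks were not named. A gene that this rule selects is not reported here. The alternatives covered the windows, the flank, the peak set, the starts used, the overlap rule, the motif search and each library left out. Without depth, no counting interval can be given.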

Additional observations from a re-analysis of the deposited data

How the results depend on the processing

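All 8 genes kept a promoter peak under each alternative tried but 1: with a window of 500 bp the mean over the libraries was 7.5, since Npas2 lost its peak in 1 library. The median tallest promoter height (2.95 as a mean of the libraries) ran from 2.33 to 3.57 with each library left out, the median number of peaks (8.75) from 7.5 to 10, and the share of peaks found in the other library (72.0%) from 58.3% to 85.7%. The median number of peaks was 7.75 with a flank of 5000 bp, 12.75 with 50000 bp and 11 with the broader peak set. The share found in the other library was 65.0% under a stricter overlap rule and 83.1% against its broader set. With a promoter window of 2500 bp the tallest Nfil3 peak was 3.48 in place of 2.08, because the upstream peak then counted; the tallest heights of the other 7 genes moved by less than the spread between libraries. Motif counts depended on the search: the number of genes with CACGTG in a promoter peak (3.5 as a mean) was 0 in the 300 bp around the 5′ end, and that with TAGGTCA (2.5) was 0 in footprints. No paired analysis was possible because there is 1 group. With 2 libraries, leaving 1 out cannot show which is typical. Depth is unknown, so a peak called in 1 library only cannot be told from one near the calling limit of the other.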
